A study of Mus with 2 samples.

Results

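Transforming growth factor beta (TGF-beta) ligands, receptors and associated genes were followed across the cell classes of the newborn mouse kidney. The 8 genes were listed by symbol: the ligands Tgfb1, Tgfb2 and Tgfb3, the receptors Tgfbr1, Tgfbr2 and Tgfbr3, the latency protein Ltbp1 and the TGF-beta-induced matrix protein Tgfbi. All 8 were found once each among the 28693 features of the count tables, and all 8 passed the filter on low counts. They were chosen by name, not by a measured value, but with earlier results of these data known.

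TGF-beta ligands are secreted as latent complexes, in which a latency protein such as Ltbp1 tethers the ligand to the extracellular matrix until it is activated. An active ligand binds the type II receptor Tgfbr2, which recruits and activates the type I receptor Tgfbr1, and Smad2 and Smad3 then carry the signal to the nucleus. Tgfbr3 (betaglycan) is a co-receptor that presents ligand, Tgfb2 in particular, to the signalling receptors. In the kidney the pathway is best known for its part in vessel and stroma development and, in disease, in fibrosis.

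Kidneys were collected from newborn (P0) mice of the genotype Rbpj c/- ; Foxd1cre/+. Rbpj is the DNA-binding factor through which Notch receptors act. Foxd1Cre, which is active in the precursors of the renal stroma, was used to delete the floxed allele (c) in the renal interstitium, and the other allele is written as - in both libraries. Both libraries analysed here carry this one genotype and are called replicate 1 and replicate 2; the control kidneys of the study (Rbpj c/+ ; Foxd1cre/+) were not analysed here, so every comparison below is between cell classes within the mutant kidneys. The labels do not say whether the libraries come from separate animals or pools, and p-values measure only the spread between these libraries.

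The libraries held 163405630 and 135436576 unique molecular identifiers (UMIs, each counting 1 captured RNA molecule), of which 83.8% and 82.0% lay in barcodes with at least 2000 UMIs. After removal of barcodes over 10% mitochondrial UMIs and of likely doublets, 5910 and 4937 cells remained. The libraries shared 6 cell barcodes. Cells were grouped with the 8 genes left out, and groups were called by markers, with "-like" added: for instance, Podxl was detected in 98.1% and Synpo in 91.3% of podocyte-like cells, and Lum was the least frequent stromal marker at 11.1% of stroma-like cells. Interferon-related and class I genes (Rsad2 in 1 endothelial-like cluster, H2-Q7 and H2-Q6 in 1 podocyte-like cluster) were among the leading genes of named clusters. Rbpj stood at 25.5 and 24.5 CPM (UMIs of the gene per 1000000 UMIs of the class) in the stroma-like class, against 46.7 and 47.3 CPM over all cells, but a count of 3′ ends cannot show whether a floxed exon is missing. The level was not low in all stromal groups. Mural-like cells had 79.3 and 98.8 CPM of Rbpj, on 17 and 24 UMIs. A stroma-like sub-cluster led by Clec3b, described below, had 71.2 and 48.8 CPM. As background, 2 measures were taken for each of the 8 genes: its level in barcodes of 1 to 100 UMIs, which hold free RNA, and its level in erythroid-like cells. Neither was taken for the other pathway genes named below.

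The ligands, receptors and associated genes each had a distinct distribution over the classes. Tgfb1 was highest in immune-like and endothelial-like cells, Tgfb3 in stroma-like cells and nephron progenitor-like cells, Tgfbr2 in endothelial-like cells, Tgfbr3 in podocyte-like cells, Tgfbi in immune-like cells and nephron progenitor-like cells, and Ltbp1 in early nephron-like and podocyte-like cells. Tgfbr1 varied least: among the classes other than the erythroid-like one, its highest mean level was 2.73 times its lowest, whereas the same ratio was 327 for Tgfb1. Levels are compared for each gene across classes, and not between genes.

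**Figure D1:**
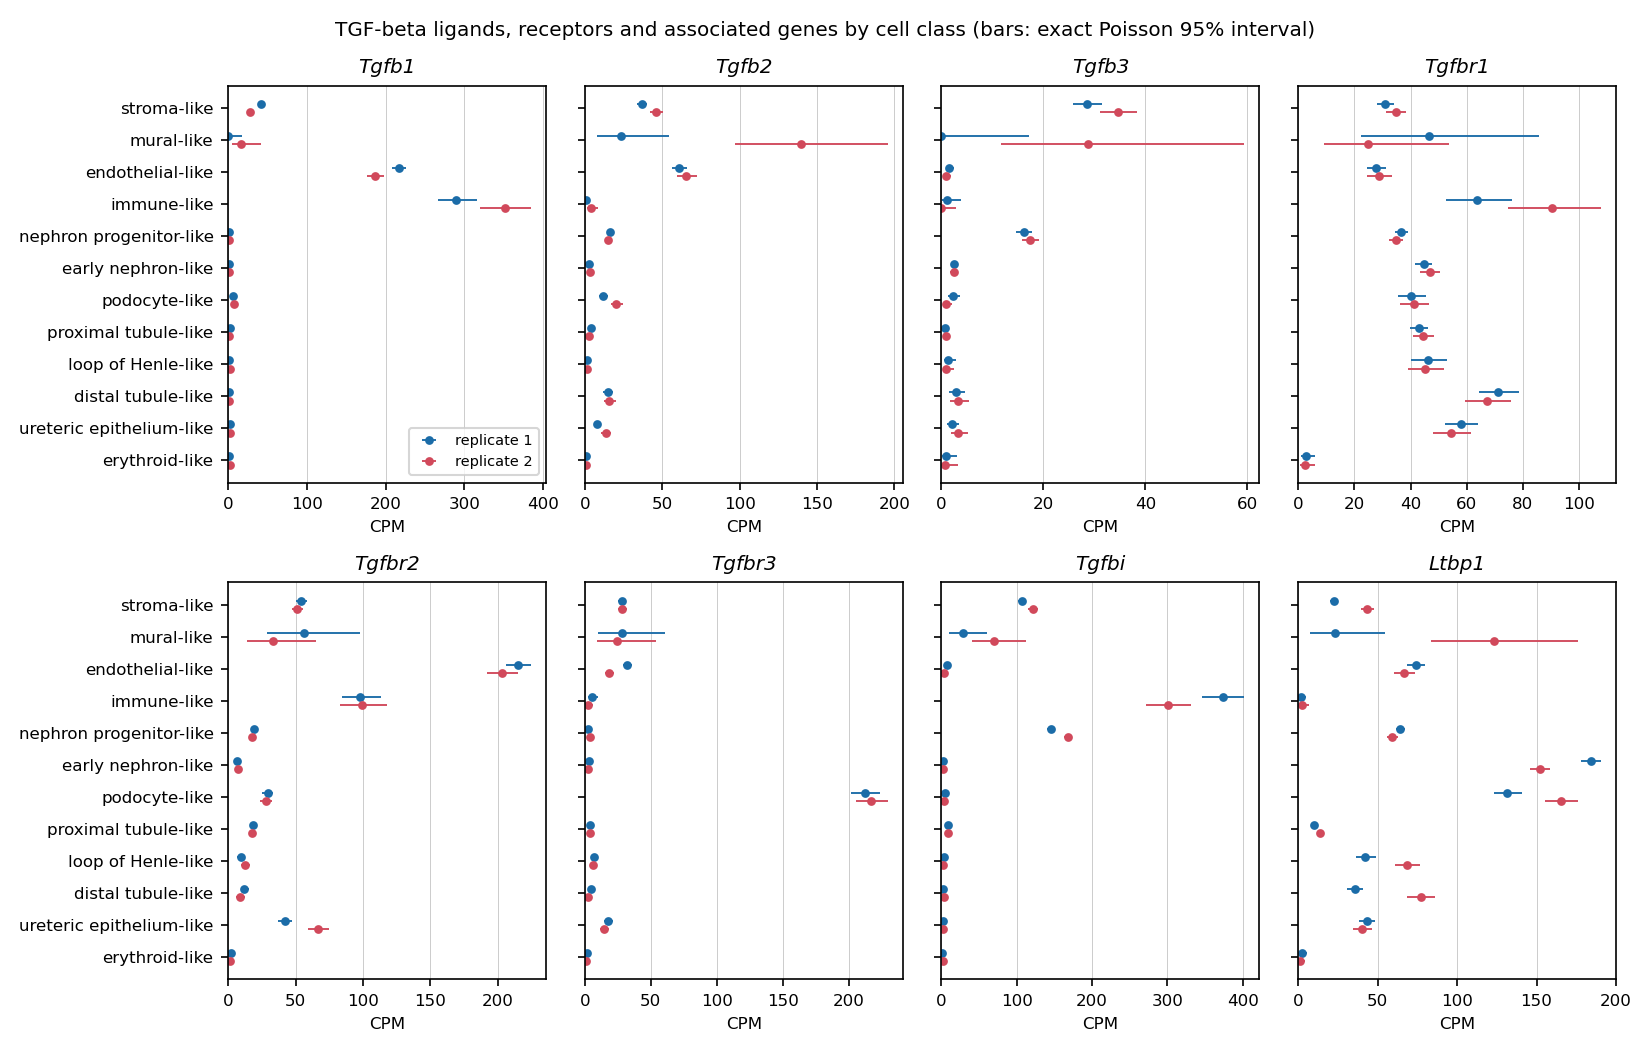
Level of each of the 8 genes (x axis, CPM, linear scale, a different range in each panel) in the 12 named cell classes (y axis), with replicate 1 in blue and replicate 2 in red and bars for the exact Poisson 95% interval. Tgfb1 reaches 290 and 351 CPM in the immune-like class and stays at or below 2.78 CPM in the nephron classes other than the podocyte-like one and in the ureteric epithelium-like class, while Tgfbr1 lies between 27.7 and 90.2 CPM in the classes other than the mural-like and erythroid-like ones.

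Tgfb1 (chromosome 7, 25687002 to 25705077 in GRCm38.p6, the build also called mm10), the most widely studied ligand, was a gene of immune-like, endothelial-like and, at a lower level, stroma-like cells. Its level was 290 CPM (exact Poisson 95% interval 266 to 315) in replicate 1 and 351 CPM (320 to 384) in replicate 2 in the immune-like class, and 217 CPM (208 to 226) and 187 CPM (176 to 198) in the endothelial-like class. In the stroma-like class it was 41.2 and 28.0 CPM. Each library thus placed these classes in the same order, with immune-like cells highest. The podocyte-like class stood at 5.63 and 7.03 CPM, and the other nephron classes and the ureteric epithelium-like class between 0.674 and 2.78 CPM. That is near the 1.65 and 2.96 CPM of the erythroid-like cells and far under the 51.1 and 48.7 CPM of free RNA. After each cell was thinned to 4600 UMIs, Tgfb1 was detected in 66.7% and 77.7% of immune-like cells and in 56.0% and 50.4% of endothelial-like cells, against 0.870% and 2.37% of erythroid-like cells; without thinning the shares were 68.4% and 82.0% (immune-like, median 7637 and 8801 UMIs per cell) and 75.3% and 72.9% (endothelial-like, median 8698.5 and 9639 UMIs).

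Because endothelial-like cells were more numerous than immune-like ones, they held 58.7% ± 4.96 (SD, n = 2 libraries) of all Tgfb1 UMIs in the kept cells. Immune-like cells held 19.1% ± 4.62 and stroma-like cells 15.3% ± 1.27. These shares, like those given below for other genes, depend on which cells the dissociation released and on the UMIs captured per cell.

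Tgfb2 (chromosome 1, 186622787 to 186709697), the ligand that relies most on betaglycan, was spread over more classes. The endothelial-like class held 60.8 and 65.6 CPM and the stroma-like class 36.7 and 46.2 CPM. Podocyte-like cells stood at 11.9 and 20.4 CPM, nephron progenitor-like cells at 16.4 and 14.9 CPM, distal tubule-like cells at 14.9 and 15.9 CPM and ureteric epithelium-like cells at 7.98 and 13.5 CPM. Both libraries gave endothelial-like cells a higher level than stroma-like cells, and both gave stroma-like cells a higher level than any nephron class. Immune-like cells, the highest class for Tgfb1, had 1 and 5 Tgfb2 UMIs (0.535 and 3.73 CPM). The mural-like class had the highest mean, but it rested on 23 and 20 cells whose libraries differed widely, at 23.3 CPM (95% interval 7.58 to 54.5) and 140 CPM.

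Tgfb3 (chromosome 12, 86056743 to 86079041) was found mainly in stroma-like cells, at 28.6 and 34.6 CPM, and in nephron progenitor-like cells, at 16.1 and 17.4 CPM. The stroma-like class was above the nephron progenitor-like class in each library. Every other class apart from the mural-like one (0 and 7 UMIs) lay at or under 3.2 CPM, below the 7.10 and 8.57 CPM of free RNA. Endothelial-like cells, rich in Tgfb1 and Tgfb2, had 1.52 and 0.802 CPM, and immune-like cells 2 UMIs in replicate 1 and none in replicate 2, where 3 counts would be 2.24 CPM. Nephron progenitor-like cells held 44.5% ± 0.36 of all Tgfb3 UMIs and stroma-like cells 40.8% ± 2.14 (SD, n = 2). The nephron progenitor-like cells were also deeper, with a median of 14632 and 13855.5 UMIs against 9729 and 9255 in stroma-like cells.

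Tgfbr1 (chromosome 4, 47353222 to 47414926), the type I receptor, was detected throughout. Its level was 63.7 and 90.2 CPM in immune-like cells, 71.2 and 67.2 CPM in distal tubule-like cells and 57.9 and 54.5 CPM in ureteric epithelium-like cells. The early nephron-like, loop of Henle-like and proximal tubule-like classes all lay between 43.0 and 46.9 CPM. Podocyte-like cells followed at 40.3 and 41.1 CPM, nephron progenitor-like cells at 36.7 and 34.7 CPM, stroma-like cells at 31.1 and 34.8 CPM and endothelial-like cells at 27.7 and 28.7 CPM. The class with the most Tgfb1 per UMI after the immune-like one, the endothelium, had the lowest mean Tgfbr1 level of the classes other than the erythroid-like one, whose level was 2.89 and 2.37 CPM, although the mural-like level in replicate 2 (24.7 CPM) lay below it. Many of these levels lay below the 54.8 and 66.1 CPM of free RNA, and the erythroid-like mean of 2.63 CPM was 4.35% of the free RNA mean.

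Tgfbr2 (chromosome 9, 116087695 to 116175363), the ligand-binding type II receptor, differed between classes far more than its partner. Endothelial-like cells had 215 and 203 CPM and immune-like cells 97.9 and 99.2 CPM. Ureteric epithelium-like cells had 42.0 and 66.6 CPM, stroma-like cells 54.4 and 51.2 CPM and podocyte-like cells 29.2 and 27.9 CPM. Endothelial-like cells were about the same in the 2 libraries and stood well above all other classes. Proximal tubule-like and nephron progenitor-like cells lay between 17.5 and 18.9 CPM, loop of Henle-like and distal tubule-like cells between 8.83 and 12.7 CPM, and early nephron-like cells were the lowest nephron class at 6.70 and 7.41 CPM. Thinned to 4600 UMIs, 56.0% and 48.9% of endothelial-like cells had a Tgfbr2 UMI, against 3.94% and 3.03% of early nephron-like cells and 0.870% and 0% of erythroid-like cells, the last being 0 of 169 cells, with an exact upper limit of 2.16%. Without thinning the shares were 77.4% and 76.4% in endothelial-like cells and 18.0% and 16.3% in early nephron-like cells, whose median depth was 20701.5 and 19517 UMIs.

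Signalling needs both receptors in a cell, so cells with a UMI of each were counted after thinning to 4600 UMIs. They made up 6.67% (exact binomial 95% interval 3.37 to 11.6) and 10.7% (5.45 to 18.3) of immune-like cells, and 5.54% (3.86 to 7.65) and 7.94% (5.49 to 11.02) of endothelial-like cells. In early nephron-like cells the shares were 0.394% (0.0478 to 1.42) and 0.189% (0.00479 to 1.05). The product of the 2 separate shares was 6.62% and 8.45% for immune-like cells and 6.48% and 6.31% for endothelial-like cells, inside those intervals, so an excess of cells with both receptors was not detectable at this depth.

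Tgfbr3 (chromosome 5, 107106567 to 107289629), the betaglycan co-receptor, was highest in podocyte-like cells, at 212 and 217 CPM. The stroma-like class had 28.2 and 28.3 CPM, the endothelial-like class 32.2 and 18.1 CPM and the ureteric epithelium-like class 17.6 and 14.7 CPM. All other classes but the mural-like one (28.0 and 24.7 CPM, 6 UMIs in each library) lay at or under 6.96 CPM, and the podocyte-like level was far above every other class in each library. Podocyte-like cells, 8.26% and 7.11% of the cells, held 58.4% ± 6.27 of the Tgfbr3 UMIs (SD, n = 2), and after thinning 59.6% and 66.1% of them had a UMI, against 12% and 12.2% of stroma-like cells and 0.870% and 0.592% of erythroid-like cells. Unthinned, the podocyte-like shares were 77.9% and 84.3%.

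Ltbp1 (chromosome 17, 75005480 to 75392512), which anchors latent ligand in the matrix, was strongest in early nephron-like cells, at 184 and 152 CPM, and in podocyte-like cells, at 132 and 166 CPM. Endothelial-like cells had 74.0 and 66.7 CPM and nephron progenitor-like cells 64.4 and 59.3 CPM. The libraries parted in several other classes: distal tubule-like cells had 35.6 and 77.0 CPM, loop of Henle-like cells 42.2 and 68.4 CPM and stroma-like cells 22.3 and 43.4 CPM. Proximal tubule-like cells, at 10.1 and 13.5 CPM, were the lowest nephron class. Immune-like cells, the richest in Tgfb1, had 3 Ltbp1 UMIs in each library (1.60 and 2.24 CPM), where erythroid-like cells had 2.48 and 1.19 CPM.

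Tgfbi (chromosome 13, 56609586 to 56639359), a secreted matrix protein first found as a TGF-beta-induced gene, had its highest level in immune-like cells, at 373 and 301 CPM. Nephron progenitor-like cells followed at 145 and 168 CPM and stroma-like cells at 107 and 122 CPM. The order of these 3 classes was the same in both libraries. Early nephron-like cells, the stage that follows the progenitors, had 1.74 and 1.46 CPM, and endothelial-like cells 7.71 and 3.69 CPM. Free RNA stood at 140 and 110 CPM, and erythroid-like cells at 0.825 and 2.37 CPM. Nephron progenitor-like cells held 62.4% ± 4.01 of the Tgfbi UMIs and stroma-like cells 22.2% ± 0.40 (SD, n = 2), and after thinning 40.2% and 46.1% of nephron progenitor-like cells and 67.3% and 55.3% of immune-like cells had a UMI, against 0.870% and 1.18% of erythroid-like cells. Unthinned, the shares were 76.1% and 77.4% of nephron progenitor-like, 69.3% and 70.3% of immune-like and 0.418% and 0.838% of erythroid-like cells. The shares of Tgfbi UMIs also reflect depth: 1109 and 1134 nephron progenitor-like cells held 26917793 and 22795253 UMIs in all. The 1317 and 1115 stroma-like cells held 13483462 and 10812773.

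Each class was next tested against the one below it in the order of mean CPM, with edgeR's quasi-likelihood test on UMI sums and Benjamini-Hochberg adjustment over 15261 genes. Between 10% and 66.4% of all genes were called in these pairs at an adjusted p under 0.05, so a call in a pair is common. Pairs with the erythroid-like class are left out, because in most of them the fitted direction was opposite to the CPM order; the cause was not tested. Only neighbours in the order were tested, so classes further apart may differ where no step between them passed.

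For Tgfb1, the immune-like class exceeded the endothelial-like one (log2 fold change 0.78 ± 0.14 SE, edgeR adjusted p 3.8e-05; 0.89 ± 0.39 and adjusted p 0.0561 with DESeq2; 45.1% of all genes called), and the endothelial-like class exceeded the stroma-like one (2.56 ± 0.14, 8.6e-14; 52.3% called). Podocyte-like cells were above ureteric epithelium-like cells (1.47 ± 0.41, adjusted p 0.0034; 58.8% called). From the proximal tubule-like class down to the distal tubule-like class, no step passed the test, with adjusted p between 0.64 and 0.86. For Tgfb2, the mural-like and endothelial-like classes did not differ beyond their spread (0.46 ± 0.39, adjusted p 0.49), nor did the podocyte-like, nephron progenitor-like, distal tubule-like and ureteric epithelium-like classes in turn. For Tgfb3, stroma-like cells exceeded nephron progenitor-like cells (0.88 ± 0.22, adjusted p 0.0013; 57.2% called), while from the distal tubule-like class down no step passed the test.

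For Tgfbr1, immune-like cells exceeded distal tubule-like cells (0.42 ± 0.13, adjusted p 0.0072; 55.4% called), and from the podocyte-like class down to the endothelial-like class no step passed the test. For Tgfbr2, endothelial-like cells exceeded immune-like cells by 0.97 ± 0.15 and these exceeded ureteric epithelium-like cells by 1.14 ± 0.16 on the log2 scale (the latter in a pair with 53.5% called), while no step passed from ureteric epithelium-like through stroma-like and mural-like to podocyte-like cells. The mural-like class had 12 and 8 Tgfbr2 UMIs, and stroma-like cells (54.4 and 51.2 CPM) lay above podocyte-like cells (29.2 and 27.9 CPM) in both libraries. For Tgfbr3, podocyte-like cells exceeded stroma-like cells by 2.80 ± 0.15 (adjusted p 5.8e-14; 60.7% called), and neither the step from stroma-like to mural-like cells nor that from mural-like to endothelial-like cells passed. For Tgfbi, immune-like cells exceeded nephron progenitor-like cells (1.23 ± 0.14, adjusted p 7.7e-08; 57.3% called), which exceeded stroma-like cells (0.48 ± 0.13, 0.0035). For Ltbp1, no step passed the test from early nephron-like down to stroma-like cells, and the first that did was stroma-like against proximal tubule-like (1.43 ± 0.27, adjusted p 6.8e-05; 66.4% called).

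Stroma-like cells were then compared with the mean of the 6 nephron classes (nephron progenitor-like, early nephron-like, podocyte-like, proximal tubule-like, loop of Henle-like and distal tubule-like). All 8 genes were called, 6 higher and 2 lower, where 64.8% of all 15261 genes were called, 33.2% higher and 31.7% lower. The 3 ligands were higher in the stroma: Tgfb1 by 4.44 ± 0.15 on the log2 scale (edgeR adjusted p 5.5e-18), Tgfb2 by 2.82 ± 0.15 (3.9e-14) and Tgfb3 by 3.79 ± 0.18 (5.0e-15). Tgfbr2 and Tgfbr3 were higher by 1.98 ± 0.10 and 1.99 ± 0.14, and Tgfbi by 4.35 ± 0.12. Tgfbr1 was lower (-0.41 ± 0.08, adjusted p 1.0e-04), as was Ltbp1 (-0.87 ± 0.19, 3.9e-04). Those last calls did not hold throughout: with coarser clusters (Leiden resolution 0.5), Tgfbr1 lost the call (adjusted p 0.17) and Ltbp1 turned to 0.31 (adjusted p 0.22), and Ltbp1 also lost it with a mitochondrial limit of 20% (-0.29, adjusted p 0.23). The median log2 fold change of the 8 genes was 2.41, against -0.01 over all genes. These fitted values weigh the 6 nephron classes equally on the log scale, and differ from the ratio to their pooled UMIs where 1 class holds most of a gene. Pooled, Tgfbi was 107 and 122 CPM in the stroma against 52.2 and 62.0 CPM in the nephron classes (ratio 2.01, 95% interval 1.92 to 2.09, for counting error only), and within those classes the nephron progenitor-like cells, at 145 and 168 CPM, were above the stroma. Pooled Tgfbr3 was 28.2 and 28.3 against 21.3 and 22.7 CPM (ratio 1.29, 1.18 to 1.40), with podocyte-like cells far above the stroma. The pooled ratio was also below the fitted value for Tgfb2 (4.36, 4.02 to 4.74) and Tgfb3 (4.52, 4.11 to 4.97).

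Endothelial-like cells were above the nephron classes for 2 ligands, Tgfb1 by 7.01 ± 0.12 (edgeR adjusted p 2.2e-24) and Tgfb2 by 3.47 ± 0.15 (3.4e-16), and for Tgfbr2 (3.99 ± 0.09, 4.5e-22) and Tgfbr3 (1.88 ± 0.16, 1.5e-10). Tgfbr1 was lower, by -0.61 ± 0.09 (adjusted p 2.1e-06). So 5 of the 8 genes were called, 4 higher and 1 lower, near the 64.8% of all genes called in this comparison (32.9% higher, 31.9% lower). Tgfb3 (-0.83 ± 0.41, adjusted p 0.080), Tgfbi (0.14 ± 0.25, 0.65) and Ltbp1 (0.31 ± 0.18, 0.13) were not. Under other settings Ltbp1 was called higher in 7 of 14, up to 1.10 (adjusted p 4.4e-05), and Tgfbi turned negative in 5. With cells assigned one by one by their markers, the count became 8, with Tgfbi then lower in the endothelium (-0.93 ± 0.33, adjusted p 0.017). Against the pooled UMIs of the nephron classes, endothelial Tgfbi was 7.71 and 3.69 against 52.2 and 62.0 CPM (ratio 0.109, 95% interval 0.0882 to 0.132). Pooled Ltbp1 was 74.0 and 66.7 against 84.1 and 83.7 CPM (ratio 0.848, 0.798 to 0.902). For both genes the pooled ratio thus lies on the other side of equality from the fitted value. Pooled Tgfb3 had a ratio of 0.180 (0.109 to 0.279), from 15 and 5 endothelial UMIs. For Tgfb2 the pooled ratio was 6.68 (6.15 to 7.25), in the direction of the fitted value but smaller. Pooled Tgfbr3 had a ratio of 1.22 (1.10 to 1.35) and its replicates differed in direction, 32.2 and 18.1 against 21.3 and 22.7 CPM.

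Immune-like cells were above the same nephron classes for Tgfb1 (7.79 ± 0.14, edgeR adjusted p 1.5e-23), Tgfbi (6.06 ± 0.14, 1.5e-21), Tgfbr2 (3.02 ± 0.15, 9.7e-15) and Tgfbr1 (0.93 ± 0.11, 8.2e-08), and below them for Ltbp1 (-4.80 ± 0.66, 1.1e-06). These 5 of 8 calls compare with 54.5% of all genes (25.8% higher, 28.7% lower). Against the pooled nephron UMIs, Tgfbi was 373 and 301 against 52.2 and 62.0 CPM, a ratio of 6.06 (95% interval 5.68 to 6.45). Tgfb2, Tgfb3 and Tgfbr3 had at most 10 UMIs in an immune-like library and were not called here. Their pooled ratios were 0.199 (0.0730 to 0.435), 0.0901 (0.0109 to 0.326) and 0.185 (0.0983 to 0.316), intervals that cover counting error only and not the spread between libraries. Under other settings Tgfbr3 was called lower in 4 (-1.32 to -1.95, adjusted p 0.0052 to 0.039) and Tgfb2 in 3 (-1.50 to -1.97, adjusted p 0.011 to 0.047). The comparisons with the nephron classes share the nephron libraries and are not independent of each other.

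Set directly against the endothelium, the stroma had more Tgfb3 (4.62 ± 0.34, edgeR adjusted p 3.3e-11) and Tgfbi (4.21 ± 0.20, 8.6e-15). It had less Tgfb1 (-2.56 ± 0.14), Tgfb2 (-0.64 ± 0.17, adjusted p 0.0022; 0.17 with DESeq2), Tgfbr2 (-2.01 ± 0.12) and Ltbp1 (-1.18 ± 0.24, 2.1e-04). That makes 6 of 8 called against 52.3% of all genes (25.7% higher, 26.6% lower). The stroma differed from immune-like cells in all 8 genes (53.1% of all genes called, 28.2% higher and 24.9% lower): 4 were higher, Tgfb2, Tgfb3, Tgfbr3 and Ltbp1, by 2.67 to 5.48 on the log2 scale, and 4 lower, Tgfb1 (-3.34 ± 0.15), Tgfbr1, Tgfbr2 and Tgfbi. The endothelium differed from immune-like cells in 7 genes, 4 higher and 3 lower (45.1% of all genes called, 24.3% higher and 20.9% lower), with Tgfbi -5.92 ± 0.21 and Ltbp1 5.11 ± 0.68. Tgfb3, at 0.86 ± 1.15, was the exception. Its single-library values were 0.34 and 3.87, on 15 and 5 endothelial-like UMIs and 2 immune-like UMIs, all in replicate 1.

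**Figure D2:**
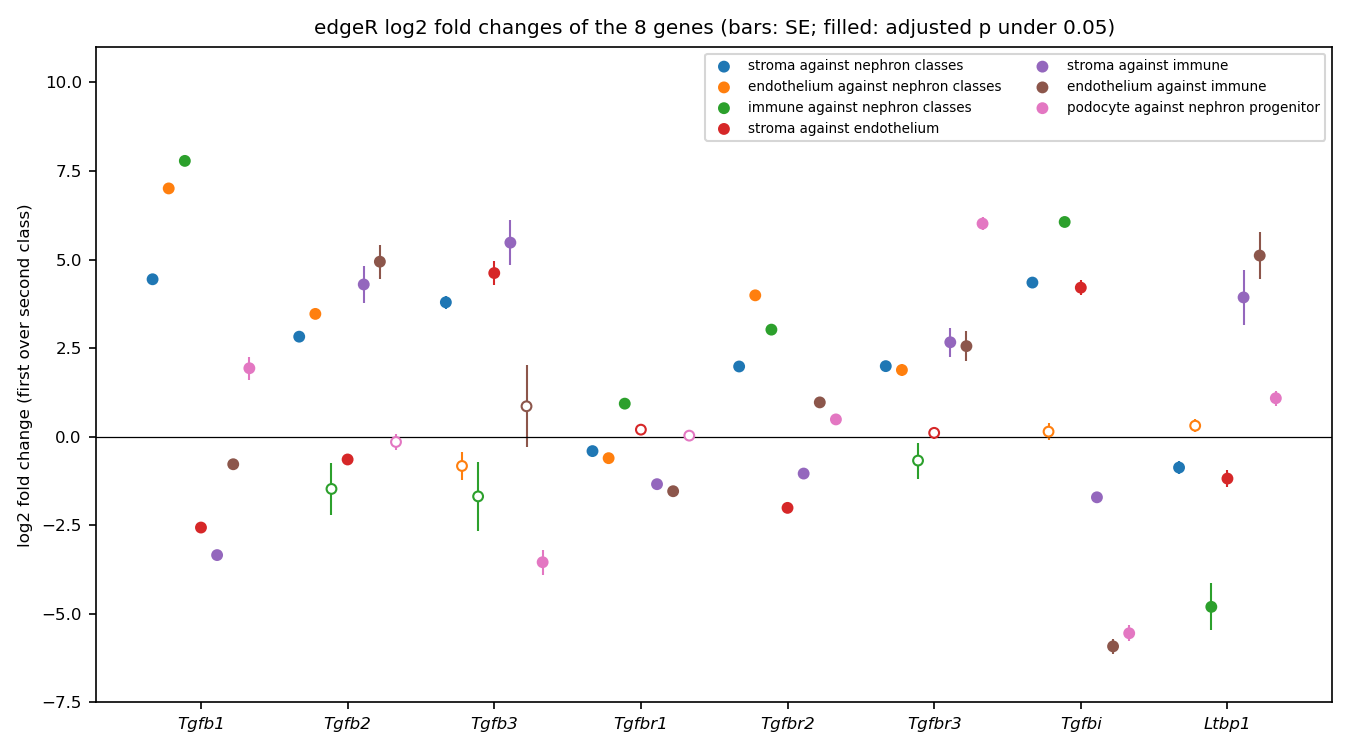
Fitted log2 fold change of each of the 8 genes (x axis) in the 7 comparisons between cell classes (y axis, first class over second, linear scale of log2 units; colours name the comparison), with bars for the standard error and open points where the adjusted p was 0.05 or more. Tgfb1 spans from -3.34 for stroma against immune to 7.79 for immune against nephron classes, while all Tgfbr1 values lie between -1.54 and 0.93.

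Within the nephron classes all 8 genes differed between at least some classes by edgeR's F test (largest adjusted p 2.1e-05, for Tgfb1), where 87.9% of all genes did. The podocyte-like class was compared with the nephron progenitor-like class, the start of the lineage. Tgfbr3 was higher in podocyte-like cells by 6.01 ± 0.18 (edgeR adjusted p 1.3e-18), Tgfb1 by 1.93 ± 0.32 (1.5e-05), Ltbp1 by 1.09 ± 0.21 (1.1e-04) and Tgfbr2 by 0.49 ± 0.15 (0.0081). Tgfbi was lower by -5.55 ± 0.23 (3.0e-16) and Tgfb3 by -3.54 ± 0.35 (5.4e-09). Tgfb2 (-0.15 ± 0.22, adjusted p 0.58) and Tgfbr1 (0.03 ± 0.10, 0.83) were not called, so 6 of 8 were, where 59.7% of all genes were (28.6% higher, 31.1% lower). The Ltbp1 call was lost when cells needed 4000 UMIs (0.07 ± 0.23, adjusted p 0.82). The podocyte-like clusters also lay far apart for Ltbp1, as given below.

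The separate clusters give the levels along the lineage. Tgfbi was 197 and 219 CPM in the progenitor cluster led by Cited1, Crym and Six2, the markers of uncommitted progenitors, and 142 and 172 CPM in the dividing cluster led by Cenpf and Cenpe. In the dividing cluster led by histone genes such as Hist1h1b it was 99.4 and 105 CPM. In the cluster led by Fam132a, Col9a1 and Bmper, which also has Wnt4, a gene of committed progenitors, among its leading genes, it was 90.0 and 95.2 CPM. In the Lhx1-led early nephron cluster it was 2.44 and 0.967 CPM. Ltbp1 was 52.3 and 57.6 CPM in the Cited1-led cluster, 169 and 147 CPM in the Lhx1-led cluster and 216 and 164 CPM in the cluster led by Irx1 and Sim2. These are descriptions of clusters and were not tested one against another.

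Levels in the 2 podocyte-like clusters lay apart for the receptors and for Ltbp1. The cluster led by Pcp4, Ndnf and R3hdml had 228 and 272 CPM of Ltbp1, 127 and 147 CPM of Tgfbr3 and 11 and 8.21 CPM of Tgfbr2. The cluster with the slit diaphragm gene Nphs1 among its leading genes had 66.3 and 59.1 CPM of Ltbp1, 270 and 287 CPM of Tgfbr3 and 41.6 and 47.7 CPM of Tgfbr2. In each library Ltbp1 was thus higher in the first cluster and Tgfbr2 and Tgfbr3 in the second. The nephron progenitor-like class had 64.4 and 59.3 CPM of Ltbp1, near the level of the second cluster. The higher Ltbp1 of the podocyte-like class thus lay in the first cluster, with 119 and 100 cells against 369 and 251 in the second. Tgfbr1 was 48.4 and 51.3 CPM in the first and 34.9 and 30.9 CPM in the second.

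**Figure D3:**
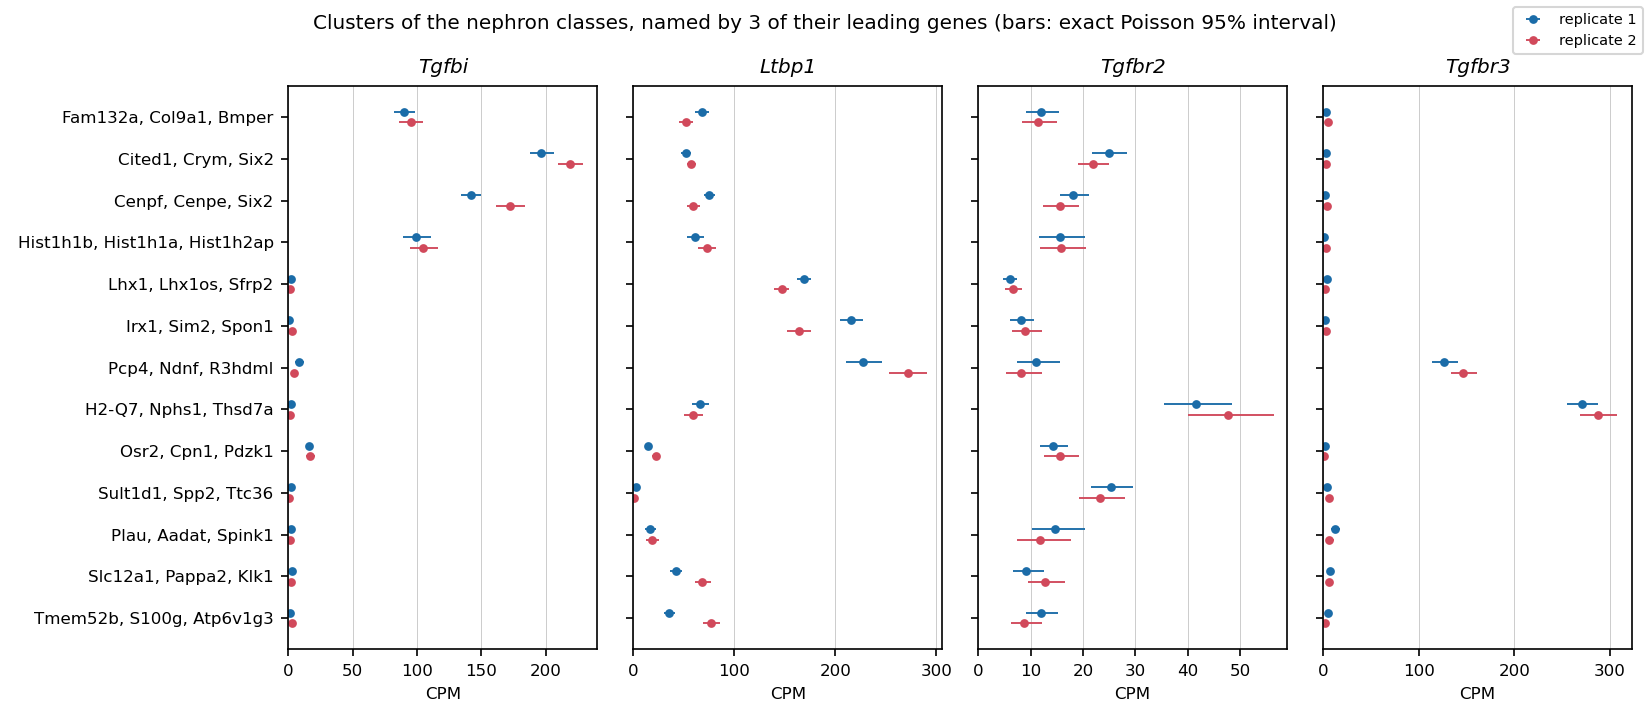
Levels of Tgfbi, Ltbp1, Tgfbr2 and Tgfbr3 (x axes, CPM, linear) in the 13 clusters of the nephron classes (y axis, named by 3 of their leading genes, ordered by class), with replicate 1 in blue, replicate 2 in red and exact Poisson 95% intervals. Tgfbi lies between 90.0 and 219 CPM in the 4 progenitor clusters and at or under 16.8 CPM in the others, and Tgfbr3 is above 100 CPM in the 2 podocyte-like clusters alone.

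The endothelial-like cells were clustered again without the 8 genes, and 6 sub-clusters had at least 20 cells in each library. Of the 7 genes with enough counts (Tgfb3 was not tested), 6 differed among sub-clusters by edgeR's F test, where 45.6% of all genes did; Tgfbr1 did not (adjusted p 0.36). With DESeq2 the count was 5, as Tgfbi lost the call (adjusted p 0.063), and it was also 5 with sub-clustering at resolution 1, where Tgfbi had too few counts to be tested. Tgfb2 had the smallest adjusted p (9.3e-17). It was 307 and 445 CPM in the sub-cluster led by Eln, Cxcl12 and Mgp, which also has Gja5, an arterial connexin, among its 10 leading genes, as it does Tgfb2 itself. The sub-cluster led by Scin, Aqp1 and Hpgd had 85.9 and 74.6 CPM, and the one led by Car8, Lbp and Thrsp 4.23 CPM and no UMI (3 counts would be 2.69 CPM). The Eln-led sub-cluster held 419 of the 600 endothelial-like Tgfb2 UMIs in replicate 1 and 324 of 409 in replicate 2. Dividing endothelial-like cells, led by histone genes, had 3.25 and 3.21 CPM.

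Tgfb1 was 329 CPM in each library in the endothelial-like sub-cluster led by Dlk1, Fam46a and Rtl1, and between 114 and 227 CPM in the other 5. The same sub-cluster had the most Tgfbr2, 344 and 309 CPM, and the least Ltbp1, 23.5 and 2.13 CPM. By its mean, Ltbp1 was highest in the Car8-led (114 and 108 CPM) and Scin-led (133 and 86.3 CPM) sub-clusters, and the Eln-led one had 94.9 CPM in replicate 2. Among the sub-clusters that entered these tests, globin genes lead 1 endothelial-like one, with Esm1 also among its leading genes, and 1 stroma-like one, with Itga8; the part of red-cell RNA in those sub-clusters was not tested.

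**Figure D4:**
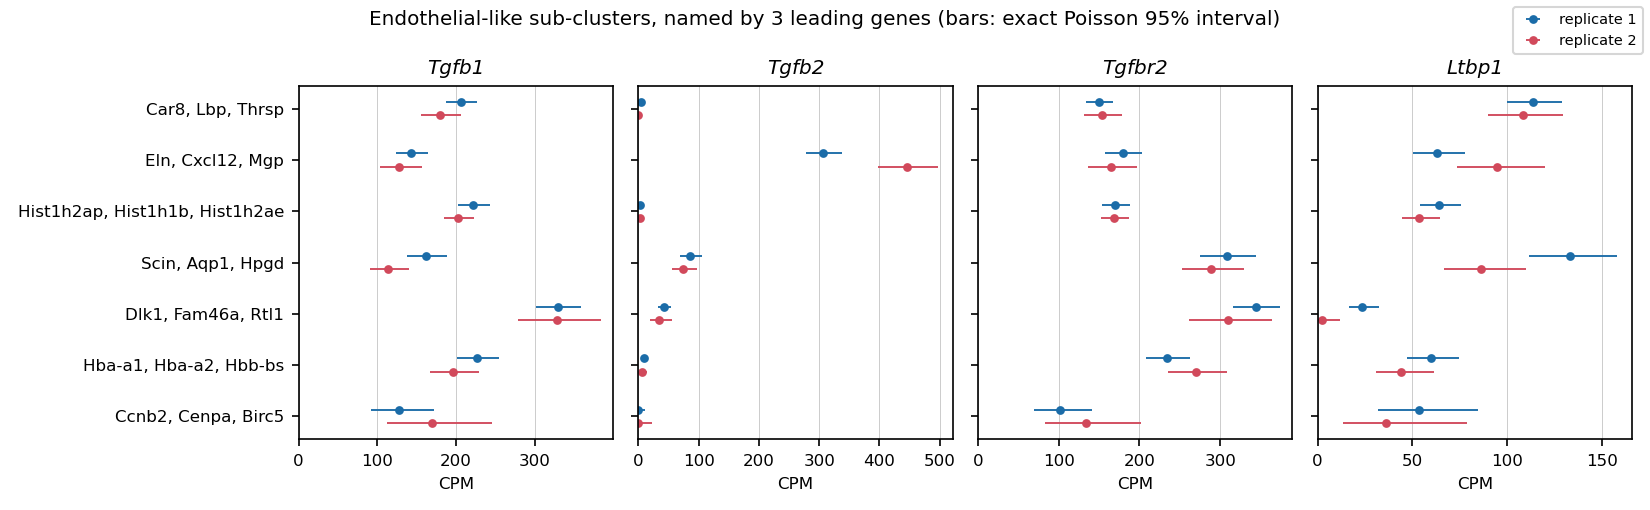
Levels of Tgfb1, Tgfb2, Tgfbr2 and Ltbp1 (x axes, CPM, linear) in the 7 endothelial-like sub-clusters (y axis, named by 3 leading genes), with replicate 1 in blue, replicate 2 in red and exact Poisson 95% intervals. Tgfb2 reaches 307 and 445 CPM in the sub-cluster led by Eln, Cxcl12 and Mgp, and at most 85.9 CPM elsewhere; the last sub-cluster (Ccnb2, Cenpa, Birc5) had under 20 cells in 1 library and was not in the test.

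The stroma-like and mural-like cells, clustered again in the same way, gave 8 sub-clusters with at least 20 cells in each library. All 8 genes differed among these sub-clusters (largest adjusted p 0.0018, for Tgfbr1), where 66.4% of all genes did. No mural-like cell was in the 8. Left out were a sub-cluster led by Tnnt2, Actg2 and Myh11 (23 and 17 cells) and one led by Hba-x, Ren1 and Mustn1 (5 and 10 cells). Among the sub-clusters in the test, the one led by Clec3b, Dlk1 and Cthrc1, whose other leading genes include Tnxb and Dpt of fibrous connective tissue, had the highest mean level of 6 of the 8 genes, among them Tgfb3 at 84.2 and 147 CPM, Tgfbr2 at 223 and 240 CPM, Tgfbr3 at 133 and 97.7 CPM and Ltbp1 at 207 and 208 CPM. Its Tgfb2 mean, also the highest in the test, lay below that of the Hba-x-led sub-cluster (42.4 and 232 CPM, on 2 and 21 UMIs). Tgfb1 in the Clec3b-led sub-cluster, at 22.7 and 10.2 CPM, had the lowest mean of those in the test. The Clec3b-led sub-cluster held 72 and 49 cells, 5.37% and 4.32% of those clustered.

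Tgfb3 was next highest in the sub-cluster led by Scx and Reln, with Gdnf, the ureteric branching signal, among its leading genes, at 52.2 and 63.2 CPM. It was 7.20 and 15 CPM in the sub-cluster led by globin genes and Itga8. Tgfb1 was highest in the sub-cluster led by Igfbp3, Clca3a1 and Agtr1a, the angiotensin receptor gene, at 91.8 and 69.5 CPM, where Tgfbi was lowest of those in the test, at 63.3 and 72.4 CPM. Ltbp1 lay at or under 18.5 CPM in the 6 sub-clusters in the test other than the Clec3b-led one and the one led by Nts, Wnt4 and Cxcl14.

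In that Nts-led sub-cluster the libraries disagreed: Ltbp1 was 78.1 CPM in replicate 1 and 223 CPM in replicate 2, and Tgfbi 146 and 234 CPM. It made up 9.18% and 13.6% of the cells clustered. The higher stroma-like Ltbp1 of replicate 2 (43.4 against 22.3 CPM) moved with both its level and its share, and their separate parts were not tested.

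**Figure D5:**
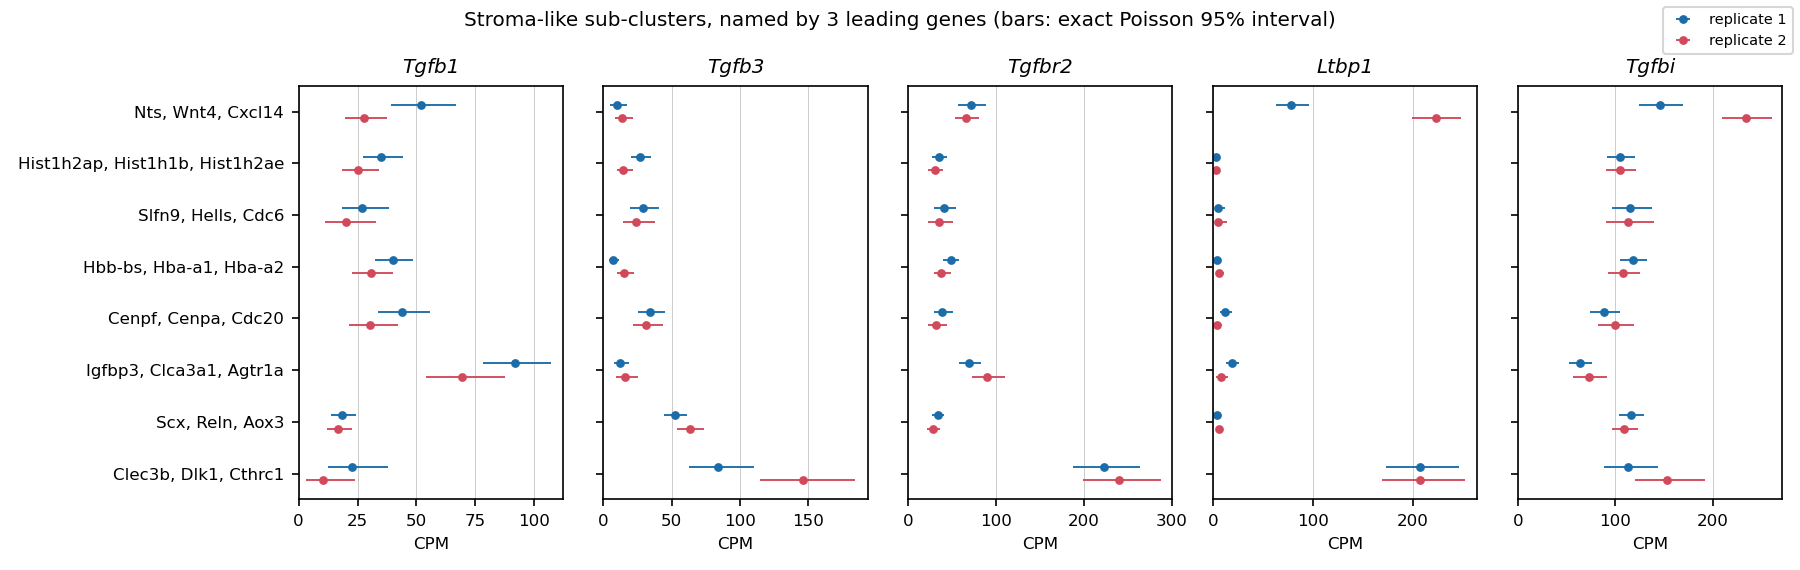
Levels of Tgfb1, Tgfb3, Tgfbr2, Ltbp1 and Tgfbi (x axes, CPM, linear) in the 8 stroma-like sub-clusters in the test (y axis, named by 3 leading genes), with replicate 1 in blue, replicate 2 in red and exact Poisson 95% intervals. The Clec3b-led sub-cluster has the highest Tgfb3 and Tgfbr2, and Ltbp1 is above 78 CPM in it and in the Nts-led sub-cluster alone.

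The immune-like class joined 3 clusters. The cluster led by the complement genes C1qa, C1qb and C1qc had 339 and 360 CPM of Tgfb1, 341 and 296 CPM of Tgfbi and 135 and 108 CPM of Tgfbr2. The cluster led by the mast cell genes Cma1, Tpsb2 and Cpa3 and by Lyz2 had 283 and 327 CPM of Tgfb1, 515 and 314 CPM of Tgfbi and 53.5 and 67.4 CPM of Tgfbr2. A cluster led by the neutrophil gene S100a9 had 40 cells in replicate 1 and 4 in replicate 2, with 41.1 CPM of Tgfb1 in replicate 1, and the calls for the 8 genes were the same without it.

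Other genes of the pathway were taken from a list of 33 by role. Of these, 27 were called between stroma and nephron classes, 22 higher and 5 lower, where 64.8% of all genes were called, 33.2% higher and 31.7% lower. Postn, a matrix protein and TGF-beta target, was 220 and 233 CPM in the stroma against 0.959 and 0.684 CPM over the nephron classes (log2 fold change 8.37 ± 0.15, edgeR adjusted p 1.3e-23). Lrrc32, which holds latent ligand at the cell surface, was higher by 6.06 ± 0.17, and Ltbp2, a relative of Ltbp1, by 6.07 ± 0.57 on low counts (45 and 25 UMIs). All 7 target genes in the list were higher in stroma, and the same count was reached in the endothelium, where 33.2% and 32.9% of all genes were higher.

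Between endothelium and nephron classes, 29 of the 33 were called, 23 higher, against 64.8% of all genes called and 32.9% higher. Eng, the endothelial co-receptor endoglin, stood at 479 and 408 CPM against 1.46 and 1.03 CPM (8.76 ± 0.15), Acvrl1, the endothelial type I receptor ALK1, at 97.1 and 99.6 CPM (7.09 ± 0.11), and Lrrc32 at 51.8 and 48.3 CPM (6.94 ± 0.16). Between immune-like cells and nephron classes, 19 were called, 7 higher and 12 lower, near the 54.5% of all genes called (25.8% higher, 28.7% lower). Nrros, which anchors latent ligand on myeloid cells, led at 182 and 211 CPM (7.41 ± 0.16), followed by Acvrl1 (5.26 ± 0.26) and Eng (4.36 ± 0.46).

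Stroma and endothelium differed in 25 of the 33, 12 higher in stroma and 13 lower, where 52.3% of all genes were called, 25.7% higher and 26.6% lower. Postn was higher by 7.04 ± 0.27 and Itgb8, an integrin subunit that activates latent ligand, by 3.97 ± 0.40, while Nrros was lower (-5.62 ± 0.25; 54.8 and 45.4 CPM in the endothelium). Of the 6 co-receptor and modulator genes in the list, 5 were lower in stroma than in endothelium and none was higher. Against immune-like cells, stroma differed in 26 (22 higher), with 53.1% of all genes called (28.2% higher): Nrros was lower (-7.70 ± 0.24), and Cd109, a co-receptor that dampens signalling, was at least 6.52-fold higher and Ltbp2 at least 3.08-fold higher, counted against a floor of 3 UMIs over both immune-like libraries, which had none. Endothelium and immune-like cells differed in 26 (21 higher), where 45.1% of all genes were called (24.3% higher), with Cd109 at least 92.5-fold higher (81.2 and 94.8 CPM against none), Lrrc32 higher by 5.61 ± 0.44 and Tgfb1i1, a focal adhesion adaptor, by 6.62 ± 0.52 on 2 immune-like UMIs.

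Podocyte-like and nephron progenitor-like cells differed in 21 of the 33, 17 of them higher in podocyte-like cells, with a share called near the 59.7% of all genes (28.6% higher). Ctgf (Ccn2), a matricellular TGF-beta target, was 94.0 and 83.3 CPM against 3.86 and 2.46 CPM (4.64 ± 0.26). Bambi, a decoy receptor, was 102 and 95.8 CPM against 8.21 and 7.11 CPM (3.53 ± 0.12), and Pmepa1, a target that feeds back on Smad signalling, 245 and 258 CPM against 29.0 and 30.4 CPM (2.92 ± 0.14). The median over the 33 genes was 0.43 on the log2 scale, against -0.05 over all genes.

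Across the 24 class-by-library columns (12 classes, 13856 genes with enough counts), the genes whose log2 CPM ran most like each of the 8 were as follows. For Tgfb1 these were Klhl6 (Pearson r 0.96), Sp100 (0.95) and Grap (0.95), and for Tgfb2 Pcdhga10 (0.92), Ltbp4 (0.88) and Sorcs2 (0.88). Tgfb3 was closest to Tulp1 (0.92), P4ha3 (0.91) and Lingo1 (0.90). Tgfbr1 ran with Pcyox1 (0.98), Aurkaip1 (0.97) and Foxred1 (0.97), and Tgfbr2 with Sh2b3 (0.94), H2-T22 (0.92) and 1700017B05Rik (0.91). Nearest to Tgfbr3 were C1qtnf1 (0.94), Arhgap28 (0.92) and Thsd7a (0.91), the last a podocyte membrane protein that also leads a podocyte-like cluster. Tgfbi had the weakest matches, Cysltr1 (0.84), Ifi27l2a (0.83) and Cd302 (0.82), and Ltbp1 ran with Asap2 (0.91), Tsc22d1 (0.91) and Ano8 (0.88). Columns of 1 library share its free RNA and columns of 1 class share its cell type. The correlations include the erythroid-like columns and were not recomputed without them.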

How the data were processed

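The deposited tables hold raw UMI counts per gene and barcode, unfiltered, made with Cell Ranger 6.0.1 on mm10 per the submitters' processing notes (the file headers name Cell Ranger 4); the deposited counts were used as they stand. Barcodes with at least 2000 UMIs and at most 10% mitochondrial UMIs were kept. Scrublet scores removed the top 310 and 212 barcodes (4.98% and 4.12%, set at 0.8% per 1000 cells, since the automatic threshold would have marked 63 and 22). Cells were clustered with scanpy 1.11.5 (2000 variable genes, 30 components, 15 neighbours, Leiden resolution 1; sub-clusters at 0.5), leaving out the 8 genes, the 33 pathway genes, mitochondrial genes, sex-linked genes and the EYFP reporter. The 34 clusters were named from 13 marker lists (at least 3 markers in 10% of cells, score at least 0.3, at least 20 cells), and a cluster with a median UMI count under its libraries' medians divided by 3 and no own marker among its 10 leading genes was left unnamed, which affected 1. After the clusters' leading genes were seen, a cluster with under 0.5 of its best list's markers detected was also left unnamed, which affected 1 cluster. In all, 3 clusters stayed unnamed, 1 of them for having under 20 cells.

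UMIs were summed per class and library and tested in 1 edgeR 4.0.16 quasi-likelihood fit (24 columns, 12 classes, library as block, TMM scaling, filterByExpr, 15261 genes, 11 residual degrees of freedom), with a call at an adjusted p under 0.05. A standard error is the log2 fold change over the root of F. The 2 libraries are the replicates, and cells are not. Replicate numbers follow accession order; the block is the library, from which all classes of a number come. On simulated data for stroma against nephron classes (13934 genes), 81 of 100 genes changed by 1 log2 unit and 95 of 100 changed by 2 were recovered, with 11 false calls among 13747 unchanged genes. The simulation gave every gene the common dispersion of 0.0041 and all classes the same mean profile, with no library effect. Only the changed genes differed, and only in stroma, whereas 64.8% of genes were called in the data. These rates therefore do not carry over to genes with a wider spread between libraries. CPM is relative to all UMIs of the class, and intervals cover counting error only. Thinning to 4600 UMIs (the 10th percentile) left out 50 and 25 immune-like, 86 and 54 endothelial-like, 5 and 6 early nephron-like, 35 and 18 podocyte-like, 84 and 97 stroma-like, 30 and 33 nephron progenitor-like and 248 and 189 erythroid-like cells.

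The 8 genes, the marker and pathway lists and the tests were chosen with earlier results of these data known. Named genes are all 8, the 3 called pathway genes with the largest fold in each comparison, and the 3 genes most like each of the 8. Ltbp4 and Tgfb1i1 are each the symbol of 2 entries, and the first entry was used. Coordinates are from RefSeq's GRCm38.p6 gene table, matched by symbol for 8 of 8 genes. No sequence is shown. Some genes that lead clusters are not reported here.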

Additional observations from a re-analysis of the deposited data

How the results depend on the processing

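Across 14 alternatives per comparison, not counting those that leave out a library, 51 of the 56 log2 fold changes of the 8 genes kept their direction, and 40 of the 45 called ones kept both direction and call; the other 5 are named in the report with the setting that ended the call. Counts of called genes stayed within 1.5 times, except endothelium against nephron classes, with 8 called instead of 5 when each cell was assigned by its markers. With no replicate block, that is without the library as a term, the count was the same in each of the 10 comparisons (8 called for stroma against nephron classes). Signs turned as follows. Endothelial Tgfbi against nephron classes became -0.21 with a mitochondrial limit of 5%, -0.51 at Leiden resolution 0.5, -0.0082 at resolution 2, -0.93 with assignment by markers and -0.20 without cells over 50000 UMIs. Stromal Ltbp1 became 0.31 at Leiden resolution 0.5, where the nephron mean covers fewer classes. Tgfb3 between endothelium and immune-like cells became -0.36 with assignment by markers. Podocyte Tgfb2 against progenitors became 0.20 at 4000 UMIs, 0.35 at the 5% limit, 0.14 without doublet removal and 0.15 with assignment by markers. Podocyte Tgfbr1 became -0.23 at 4000 UMIs, -0.043 and -0.21 at limits of 5% and 20%, -0.049 without doublet removal, -0.093 at Leiden resolution 0.5 and -0.027 without cells over 50000 UMIs. Ltbp1 in endothelium against nephron classes gained a call in 7 settings, up to 1.10 at Leiden resolution 0.5, and Tgfb3 there in 2; immune-like Tgfbr3 and Tgfb2 against nephron classes gained one in 4 and 3, stroma against endothelium Tgfbr1 in 1 (0.29 at resolution 0.5) and podocyte Tgfb2 in 1 (-0.61 without cells over 50000 UMIs). With 1 library left, values carry no test. Without replicate 1, 8 moved by more than the SD of the single-library values, and without replicate 2, 1 did. A fitted value near the midpoint of the single-library values lies within that SD by construction, so these counts do not measure stability. By library, 4 values not called turned sign: endothelial Tgfbi against nephron classes (-0.55 to 0.48), stroma against endothelium Tgfbr3 (-0.23 to 0.64), and podocyte Tgfb2 (-0.61 to 0.28) and Tgfbr1 (-0.014 to 0.077). Among called values, stroma against endothelium Ltbp1 ranged from -1.77 to -0.62, Tgfb3 from 4.14 to 5.33 and Tgfbi from 3.74 to 5.02; stroma against immune-like Tgfb2 from 3.54 to 5.77, Tgfb3 from 4.48 to 9.20 and Tgfbr3 from 2.19 to 3.55; endothelium against immune-like Tgfb2 from 4.04 to 6.54; and podocyte Tgfb3 from -4.41 to -2.97. The causes were not tested. The settings without the erythroid-like columns, without the neutrophil cluster and without cells over 50000 UMIs (39.4% and 31.9% of UMIs) were chosen after seeing the data. The mural-like class, with 23 and 20 cells, and Tgfb2, Tgfb3, Tgfbr3 and Ltbp1 in immune-like cells, with 1 to 10 UMIs or none in a library, are limited by depth.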

Other observations

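The 3 clusters that follow had no class, and their levels belong to no comparison. The cluster led by Tagln, Hbegf and Ms4a2 (121 and 70 cells) had 50.7 and 130 CPM of Tgfb2, 46.2 and 32.5 CPM of Tgfbr3, 71.3 and 66.4 CPM of Tgfbi and 77.7 and 69.5 CPM of Ltbp1. The 95% Poisson intervals of its Tgfb2 level in the 2 libraries, 42.5 to 60.0 and 111 to 151 CPM, did not overlap. The shallow cluster with the platelet genes Ppbp, Pf4 and Gp9 among its leading genes (49 and 43 cells) had 165 and 151 CPM of Tgfb1 and no Tgfbi UMI, where 3 counts would be 17.0 and 16.2 CPM. Its best-scoring class was endothelial, with 8 of 8 endothelial markers detected, and endothelial-like cells had 217 and 187 CPM of Tgfb1; the part of each cell type in its Tgfb1 was not tested. A group of 6 cells in each library, with the mesothelial genes Msln and Upk3b among its leading genes, had 551 and 347 CPM of Tgfbr2 and no Tgfb1 UMI, where 3 counts would be 32.4 and 43.3 CPM.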
